A study of Mus musculus with 21 samples.

Results

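The genes described here are 32 mouse genes of glycolysis and pyruvate metabolism, a named list of these pathways chosen with earlier results of these data known, among the 53801 genes of an RNA-seq count table of IgA+ plasma cells (IgA+ PCs) of the small intestine. All 32 genes were present in the table, and 31 of them passed the filter of at least 10 counts over all mice, as did 20256 genes in all. The exception was Ldhb, with 6 counts in 21 mice. IgA+ PCs, defined by CD138 and IgA on their surface, were sorted from single C57BL/6 mice at Zeitgeber time (ZT, hours after lights on under a 12-hour light and dark cycle) 0 or 12, with food at all times. Control mice, 6 at ZT0 and 6 at ZT12, were Mb1 +/+ x Arntl fl/fl littermates without Cre. Knockout mice, 4 at ZT0 and 5 at ZT12, were Mb1 Cre/+ x Arntl fl/fl, so every mouse carried the floxed Arntl alleles and the genotypes differed in Cre. Arntl encodes BMAL1, the partner of CLOCK in the core circadian transcription factor, and Cre was expressed from the Mb1 (Cd79a) locus, which acts from early B cell development onwards, so that the deletion was not limited to PCs. The genotype was read from the sample titles, because another label field gave the genotype without Cre for 8 of the 9 knockout mice. The ages and sex of these mice are not given in the sources used here, and every group held both mice high and mice low in Xist, the RNA of the inactive X chromosome of female cells: it was at 329 to 479 CPM in 10 mice (3 of 6, 3 of 6, 2 of 4 and 2 of 5 in control mice at ZT0 and ZT12 and knockout mice at ZT0 and ZT12) and at 0.492 to 3.51 CPM in the other 11. With Xist as a covariate the same 2 of the 31 genes were called, and none of the X-linked Pgk1, Pdk3, Pdha1 and G6pdx was.

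Glycolysis converts glucose into pyruvate in the cytosol. Hexokinases trap glucose after its uptake, phosphofructokinase commits it to the pathway, aldolase splits the hexose, and the lower enzymes recover ATP and NADH on the way to pyruvate. Pyruvate is then either reduced to lactate and exported, or carried into mitochondria and converted to acetyl-CoA by the pyruvate dehydrogenase complex, which pyruvate dehydrogenase kinases switch off. Glucose 6-phosphate can instead enter the pentose phosphate pathway. PCs secrete large amounts of antibody, and they are known to take up glucose both as a fuel and for the glycosylation of that antibody. CLOCK and BMAL1 bind E-boxes, DNA elements of the core letters CACGTG.

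Cd79a, disrupted on the Cre allele, served as a check of the labels. Its level was 505 ± 71.1 CPM (counts scaled to a common library size with TMM factors, mean ± SD, n = 6) in control mice at ZT0, 485 ± 71.4 CPM (n = 6) in control mice at ZT12, 219 ± 47.2 CPM (n = 4) in knockout mice at ZT0 and 214 ± 29.0 CPM (n = 5) in knockout mice at ZT12. The lowest control mouse was at 386 CPM and the highest knockout mouse at 276 CPM, so each library fell on the side its title names. The difference between knockout and control mice was -1.21 (log2 fold change, SE 0.15) at ZT0 and -1.18 (SE 0.14) at ZT12, with adjusted p = 9.08e-05 and 2.87e-05 (edgeR quasi-likelihood test, Benjamini-Hochberg over all genes tested). Arntl itself was at 7.80 ± 0.527 CPM in control mice at ZT0, 4.54 ± 0.547 CPM in control mice at ZT12, 4.87 ± 1.08 CPM in knockout mice at ZT0 and 3.89 ± 0.703 CPM in knockout mice at ZT12. All 4 knockout mice lay below all 6 control mice at ZT0, but the difference did not pass the test (log2 fold change -0.68, SE 0.17, adjusted p = 0.926, edgeR), and counts over the whole gene include reads outside the floxed part. At ZT12 the difference was -0.23 (SE 0.16, adjusted p = 0.678, edgeR), with 3 of the 5 knockout mice below all 6 control mice. In control mice Arntl fell between ZT0 and ZT12 (log2 fold change -0.78, SE 0.15, adjusted p = 0.0149, edgeR), with adjusted p = 0.0529 without control ZT0 replicate 2.

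The libraries held 14471018 to 22785835 counts. The sorted cells carried the defining genes of IgA+ PCs at high levels: Igha was at 276000 to 354000 CPM and Jchain at 45100 to 54500 CPM in the 4 group means, and Xbp1, the transcription factor of the secretory programme, at 2030 to 2470 CPM. Immunoglobulin genes took 52.8 ± 0.708% of all counts in control mice at ZT0 and 57.4 ± 4.01% at ZT12, a difference of 4.58 percentage points (exact two-sided permutation test p = 0.00433), which was 3.63 percentage points and did not pass when constant region genes alone were counted (exact permutation test p = 0.0909). In knockout mice they took 55.1 ± 2.88% at ZT0 and 54.6 ± 0.968% at ZT12 (exact permutation test p = 0.889). Their share was highest, at 63.6%, 59.5% and 59.1%, in control ZT12 replicates 2, 4 and 5 and, at 59.4%, in knockout ZT0 replicate 3. In control ZT12 replicates 2 and 4 and knockout ZT0 replicate 3, long genes were also low relative to short genes, with slopes of the log2 level on log2 gene length of -0.254, -0.150 and -0.131 against the mean of all libraries.

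Markers of intestinal epithelium also varied between libraries. The summed level of 15 epithelial markers, led by Epcam, was 117 ± 117 CPM in control mice at ZT0, 297 ± 391 CPM in control mice at ZT12, 85.3 ± 6.48 CPM in knockout mice at ZT0 and 259 ± 324 CPM in knockout mice at ZT12, and none of the 15 was at 0 over all mice. Flow cytometry of these cells in the study was pregated on live CD45+ cells, a gate that would leave out epithelial cells, and whether the sort for RNA used the same gate is not given in the sources used here. The 3 highest libraries were control ZT12 replicate 5 with 1085 CPM, knockout ZT12 replicate 5 with 830.6 CPM and control ZT0 replicate 6 with 356.1 CPM. The time difference of these summed markers in control mice did not pass the test (exact permutation test p = 0.175, adjusted over 28 marker tests p = 0.591). Taken singly, 9 of the 15 (60%) were higher at ZT12 at an unadjusted p under 0.05 (edgeR), beside 9.19% of all genes. None passed adjustment. Estimates were above 0 for 13 and below 0 for 2, with a median log2 fold change of 2.45. In knockout mice all 15 were above 0, with a median of 2.47, and none reached an unadjusted p under 0.05. Summed stromal and endothelial markers were lower at ZT12 than at ZT0 in control mice, 30.6 against 43.2 CPM in the group means, with no overlap between the mice (exact permutation test p = 0.00216, the smallest it can give, adjusted p = 0.0605). Summed PC markers were 1.24-fold higher (exact permutation test p = 0.0455, adjusted p = 0.425). The part of the stromal, endothelial and PC marker differences in the time comparison of control mice was not tested. Fits with epithelial markers as a covariate, or without the 3 libraries highest in them, are given below. Group means of the summed markers of T cells (18.3 to 26.7 CPM), myeloid cells (59.6 to 77.1 CPM), other B cells (20.8 to 23.2 CPM), and stromal and endothelial cells (30.6 to 43.2 CPM) were far below those of the PC genes. Erythroid markers summed to at most 0.464 CPM in the group means and 1.441 CPM in a single mouse (knockout ZT0 replicate 4). Cycling markers summed to 74.3 CPM and 98.5 CPM in control mice and 115 CPM and 137 CPM in knockout mice at ZT0 and ZT12. In such bulk samples, fewer cells of a type and less RNA per cell cannot be told apart.

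The 32 genes together made up a small and even share of the transcriptome. Their summed level was 1020 ± 24.2 CPM in control mice at ZT0, 1120 ± 133 CPM in control mice at ZT12, 1040 ± 35.6 CPM in knockout mice at ZT0 and 1040 ± 62.8 CPM in knockout mice at ZT12. Of the counts that were not immunoglobulin, they took 0.230 ± 0.01%, 0.240 ± 0.0268%, 0.237 ± 0.00903% and 0.231 ± 0.0168% in the same groups. These group values differed by less than the spread between mice within control mice at ZT12.

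Between genes, levels are compared as CPM per kilobase of gene length, as means over the 21 mice. The length is the value deposited for each gene and need not be that of the transcripts made in these cells, so ranks between genes depend on it. Aldolase A (Aldoa, 40.5 ± 3.95 CPM per kb), pyruvate kinase M (Pkm, 40.3 ± 3.34) and phosphoglycerate kinase 1 (Pgk1, 31.1 ± 3.18) were highest. Per kb the first 2 could not be ranked, as they lay within their SD of each other. In CPM, without the length, Pkm was at 202 and Aldoa at 118. Lactate dehydrogenase A (Ldha) followed at 17.1 ± 6.69 CPM per kb and pyruvate dehydrogenase E1 beta (Pdhb) at 14.7 ± 1.74 CPM per kb, again within their spread. The lowest of the 31 tested genes was Slc16a3 (MCT4, a lactate exporter) at 0.301 ± 0.134 CPM per kb. Gapdh, often used as a reference gene, stood 26th of the 31 genes at 1.68 CPM per kb with 2449 counts in all, although Gapdh acts between aldolase and Pgk1. How reads shared with its processed pseudogenes were counted is not given in the sources used here, and the level of Gapdh is therefore uncertain. The same limit applies to Eno1, Pgk1, Pgam1, Tpi1 and Ldha, whose near copies in the table held 538 (Eno1b), 253 (Pgk1-rs7), 242 (Pgam1-ps2), 126 (Tpi-rs11) and 92 (Ldha-ps2) counts.

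**Figure D1:**
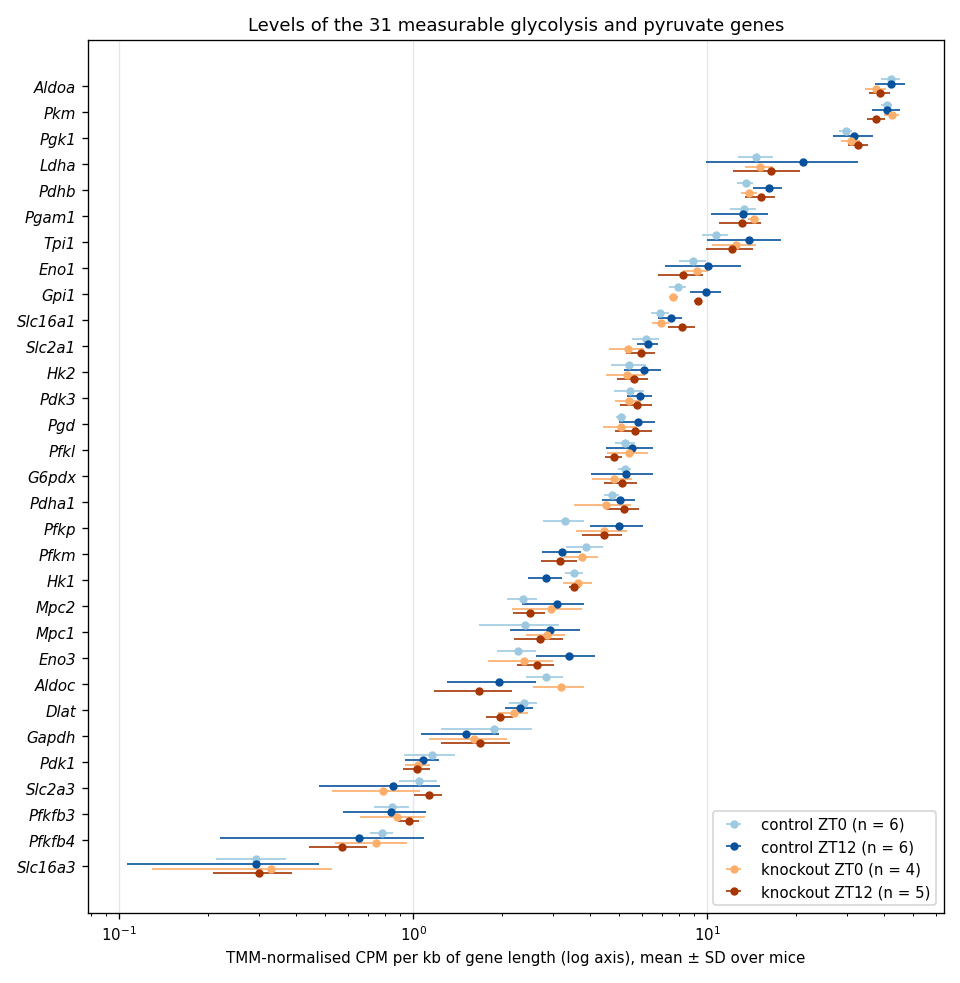
Level of the 31 tested genes in CPM per kb of gene length (log axis), ordered by their mean, with points for the group means and bars for the SD over the mice of each group. Aldoa, Pkm and Pgk1 lie highest and Slc16a3 lowest (0.301 CPM per kb).

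The first question was whether these genes differ between ZT0 and ZT12 in IgA+ PCs with an intact clock. In control mice 2 of the 31 genes rose from ZT0 to ZT12, Pfkp 1.52-fold and Gpi1 1.25-fold, and none fell (edgeR). By DESeq2, 5 of the 31 passed, with Pfkp, Gpi1, Pdhb and Eno3 higher and Hk1 lower at ZT12, beside 1052 of all genes. Over all 20256 genes, 350 passed the same test (adjusted p under 0.05), which is 1.73%, with 192 higher (0.948%) and 158 lower (0.780%) at ZT12. At an unadjusted p under 0.05, 10 of the 31 genes (32.3%) differed, 7 higher and 3 lower, beside 3657 genes or 18.1% of all genes. Estimates were above 0 for 20 of the 31 genes. Their median log2 fold change was 0.07, beside 0.01 over all genes, and single estimates ran from -0.53 (Aldoc) to 0.61 (Pfkp). Scaled by library size alone, without TMM factors, the median of all genes moved to -0.20, 8 of the 31 genes had estimates above 0, the calls over all genes were 48 higher and 398 lower, and the 2 of the 31 that passed were Hk1 and Aldoc, both lower at ZT12. Without control ZT12 replicate 5, the library with the most epithelial markers, 17 of the 31 estimates were above 0 with a median of 0.013, and with epithelial markers as a covariate 14 were, with a median of -0.015.

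Gpi1, glucose-6-phosphate isomerase, converts glucose 6-phosphate to fructose 6-phosphate (ENSMUSG00000036427, GRCm38 chr7:34201330-34230336, minus strand). Its level in control mice had a lowest, median and highest value of 48.1, 50.4 and 56.3 CPM at ZT0 and of 58.0, 61.3 and 77.2 CPM at ZT12. All 6 mice at ZT12 lay above all 6 mice at ZT0, and the highest, at 77.2 CPM, was the library with the most epithelial markers. The mean went from 51.4 ± 3.50 to 64.1 ± 7.73 CPM (log2 fold change 0.32, SE 0.08, adjusted p = 0.0426, edgeR). In knockout mice the 4 levels at ZT0 were 48.4, 48.2, 49.2 and 52.0 CPM, and the 5 levels at ZT12 were 58.8, 63.0, 58.7, 58.8 and 60.3 CPM. The groups again did not overlap, and every mouse at ZT12 was higher. The log2 fold change in knockout mice was 0.28 (SE 0.09, unadjusted p = 0.00661), which did not pass adjustment over all genes (adjusted p = 0.546, edgeR). With 1 library left out at a time the estimate of Gpi1 in control mice stayed between 0.26 and 0.35, but it passed adjustment in only 7 of 21 such fits (highest adjusted p = 0.109, edgeR), namely those without control ZT12 replicates 1 or 6, knockout ZT12 replicate 2 or any of the 4 knockout mice at ZT0. The estimate was 0.27 (adjusted p = 0.146, edgeR) with epithelial markers as a covariate, 0.27 (adjusted p = 0.14, edgeR) without the 3 libraries highest in them, and 0.10 (adjusted p = 0.555, edgeR) when scaled by library size alone. The 2 time differences of Gpi1 differed by -0.04 (log2, SE 0.12, adjusted p = 0.935 for the interaction of time and genotype, edgeR).

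Pfkp, the platelet-type phosphofructokinase, forms the committed step of glycolysis together with Pfkl and Pfkm (ENSMUSG00000021196, GRCm38 chr13:6579768-6648777, minus strand). Its level in control mice had a lowest, median and highest value of 35.3, 44.7 and 54.5 CPM at ZT0 and of 49.97, 69.4 and 84.2 CPM at ZT12. Of the 6 mice at ZT12, 4 lay above every mouse at ZT0 and the other two overlapped with them. The mean went from 44.1 ± 7.0 to 67.1 ± 13.7 CPM (log2 fold change 0.61, SE 0.14, adjusted p = 0.0275, edgeR). In knockout mice the levels were 59.7, 56.3, 75.8 and 47.6 CPM at ZT0, against 48.5, 73.1, 55.3, 57.2 and 63.5 CPM at ZT12. These groups overlapped widely, and the lowest mouse of each time was below the highest control mouse at ZT0. The log2 fold change in knockout mice was -0.01 (SE 0.16, adjusted p = 0.995, edgeR). The difference between the genotypes in this time difference was -0.61 (SE 0.21, unadjusted p = 0.0069) and did not pass adjustment (adjusted p = 0.442, edgeR). The highest Pfkp levels, 84.2 and 77.0 CPM in control mice at ZT12 and 75.8 CPM in knockout mice at ZT0, were in the 3 libraries with the length trend named above. Without these 3 libraries the log2 fold change of Pfkp in control mice was 0.46 (adjusted p = 0.163, edgeR), and with all libraries kept and the length trend removed from each it was 0.83 (SE 0.21, adjusted p = 0.0539, edgeR). Scaled by library size alone it was 0.37 (adjusted p = 0.0989, edgeR), and with epithelial markers as a covariate 0.56 (adjusted p = 0.0684, edgeR). With the immunoglobulin share as a covariate it was 0.37 (adjusted p = 0.527, edgeR). Gpi1 was at 0.22 (adjusted p = 0.531, edgeR) with that covariate, under which 0 genes of all 20256 passed. The estimate of Pfkp with 1 library left out stayed between 0.53 and 0.68 and passed in 14 of 21 such fits. It did not pass without control ZT0 replicate 1, 2, 3 or 5 or without control ZT12 replicate 2, 3 or 4 (highest adjusted p = 0.0877, edgeR).

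The promoters of the genes that rose in control mice are shown because the comparison is one of an intact with a deleted clock factor, whose E-box can be looked for by its letters. RefSeq promoter windows (GRCm38.p6, 250 bases before and 50 bases after a gene start) were matched for 31 of the 32 genes, and Slc2a3 had none. The upstream 250 bases of Pfkp (chr13:6648772-6649021, minus strand, across the annotated gene start) and Gpi1 (chr7:34230337-34230586, minus strand, upstream of the gene) are given 5′ to 3′, with capitals marking GGGCGG, the GC box bound by Sp1-type factors, or its reverse complement CCGCCC.
Pfkp: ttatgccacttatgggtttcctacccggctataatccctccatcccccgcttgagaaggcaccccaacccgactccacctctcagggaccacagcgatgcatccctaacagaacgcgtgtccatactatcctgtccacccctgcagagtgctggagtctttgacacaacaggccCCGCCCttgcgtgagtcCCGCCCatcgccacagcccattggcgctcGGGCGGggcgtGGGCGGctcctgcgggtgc
Gpi1: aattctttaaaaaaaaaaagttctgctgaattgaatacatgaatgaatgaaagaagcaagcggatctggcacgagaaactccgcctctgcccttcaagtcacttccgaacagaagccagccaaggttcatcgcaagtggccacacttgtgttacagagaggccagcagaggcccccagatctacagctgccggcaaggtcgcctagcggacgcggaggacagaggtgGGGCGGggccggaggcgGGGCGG
Neither window held CACGTG. This E-box, searched as letters on both strands, was found in 4 of the 46 windows of the 31 genes (8.70%) and in 7.15% of all 32851 windows. The shorter ACGTG, the core of the hypoxia response element, which every CACGTG also contains, was found in 20 of 46 windows (43.5%) and 19.6% of all windows. GGGCGG was found in 29 of 46 windows (63.0%) and 35.7% of all windows. Counted by gene, the shares were 12.9% against 8.09% for CACGTG, 54.8% against 21.8% for ACGTG and 80.6% against 38.2% for GGGCGG. All windows together cover 27025 genes, including genes that did not pass the count filter. They were not matched to the 31 genes by level or base content, so a difference is not shown to be particular to these genes.

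The 4 windows with CACGTG belonged to Ldha, Pfkfb3, Pfkm and Slc16a1, none of which passed the test in any comparison. They are shown with 40 bases on each side and the E-box in capitals, to let the flanks be compared. The Slc16a1 sequence (chr3:104638424-104638509, plus strand) and the Pfkm sequence (chr15:98092413-98092498, plus strand) lie upstream of the annotated gene. The Ldha sequence (chr7:46845619-46845704, plus strand) lies in an intron of a longer annotated transcript, and the Pfkfb3 sequence (chr2:11502098-11502183, minus strand) lies mostly in an intron, with 4 bases in an exon.
Slc16a1: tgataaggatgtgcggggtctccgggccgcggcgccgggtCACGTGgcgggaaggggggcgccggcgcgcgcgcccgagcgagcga
Pfkm: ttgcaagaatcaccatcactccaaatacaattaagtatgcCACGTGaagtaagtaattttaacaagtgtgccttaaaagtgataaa
Ldha: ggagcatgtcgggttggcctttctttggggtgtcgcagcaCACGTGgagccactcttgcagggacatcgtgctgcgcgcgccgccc
Pfkfb3: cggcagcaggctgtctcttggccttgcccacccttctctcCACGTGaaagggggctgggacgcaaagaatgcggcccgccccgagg
The E-box began 200, 136, 145 and 53 bases before the start of the transcript in Slc16a1, Pfkm, Ldha and Pfkfb3, and Ldha had a second one 48 bases before it. Such a match describes the letters of the window and is not evidence of binding.

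In the edgeR fit described below, no gene of glucose uptake or its first phosphorylation passed in any comparison. Hk1 and Hk2 encode hexokinases, of which Hk2 is the form that many cells raise when they use more glucose. Hk1 in control mice had a lowest, median and highest level of 27.7, 29.6 and 33.6 CPM at ZT0 and of 20.6, 23.4 and 28.2 CPM at ZT12. Of the 6 mice at ZT0, 5 lay above all mice at ZT12. The log2 fold change was -0.32 (SE 0.09, unadjusted p = 0.00158), which did not pass adjustment (adjusted p = 0.0678, edgeR). With the immunoglobulin share as covariate the log2 fold change of Hk1 was -0.15 (adjusted p = 0.693, edgeR), and with DESeq2 in place of edgeR it was -0.29 and passed (adjusted p = 0.0219). Hk1 also passed with the stricter filterByExpr count filter (-0.31, adjusted p = 0.0458, edgeR). Scaled by library size alone it was -0.51 and passed (adjusted p = 0.0481, edgeR). With 1 library left out it passed in 3 of 21 fits (lowest adjusted p = 0.0201, edgeR). In knockout mice Hk1 was at 31.2, 31.6, 26.5 and 35.3 CPM at ZT0, against 31, 29.3, 31.3, 30.8 and 28.4 CPM at ZT12. The ranges overlapped, and the log2 fold change was -0.05 (SE 0.10, adjusted p = 0.94, edgeR). At ZT12 all 5 knockout mice lay above all 6 control mice for Hk1 (log2 fold change 0.32, SE 0.09, unadjusted p = 0.00234, adjusted p = 0.562, edgeR). The antisense gene Hk1os held 59 counts in all, and the library kit named in the study's methods does not mark the strand.

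Hk2 in control mice had a lowest, median and highest level of 26.5, 31.7 and 39.4 CPM at ZT0 and of 31.1, 35.2 and 44.6 CPM at ZT12. In knockout mice its levels were 33.3, 25.6, 37.4 and 31.2 CPM at ZT0, against 35.6, 37.2, 29.1, 29.3 and 36.5 CPM at ZT12. The 4 groups overlapped. The time difference of Hk2 was 0.17 (log2, SE 0.11, adjusted p = 0.44, edgeR) in control and 0.08 (SE 0.13) in knockout mice.

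The glucose transporters were Slc2a1 (GLUT1), the widely expressed carrier, and Slc2a3 (GLUT3), a carrier of high affinity. Slc2a1 in control mice had a lowest, median and highest level of 19.0, 21.5 and 24.6 CPM at ZT0 and of 19.1, 22.4 and 23.7 CPM at ZT12. In knockout mice it was at 20.4, 17.4, 16.0 and 21.4 CPM at ZT0, against 21, 24.8, 18.8, 19.2 and 20.7 CPM at ZT12. Its groups overlapped, with knockout ZT0 replicates 2 and 3 below every control mouse of that time. The time difference of Slc2a1 was 0.02 (log2, SE 0.10, adjusted p = 0.938, edgeR) in control mice, and the knockout mice differed from control mice by -0.21 (SE 0.11, unadjusted p = 0.0672, adjusted p = 0.926, edgeR) at ZT0.

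Slc2a3 had the largest estimate among the 31 genes for the interaction of time and genotype, although Pfkp and Mpc2 had smaller p for theirs. Its level in control mice had a lowest, median and highest value of 6.03, 7.50 and 9.42 CPM at ZT0 and of 3.04, 5.70 and 10.6 CPM at ZT12. In knockout mice Slc2a3 was at 5.60, 6.19, 3.27 and 7.90 CPM at ZT0, against 9.68, 7.79, 7.67, 8.31 and 7.44 CPM at ZT12. Control mice at ZT12 held both the lowest and the highest level of all 21 mice, and in knockout mice 3 of the 4 mice at ZT0 lay below all mice at ZT12. The log2 fold change was -0.29 (SE 0.22) in control mice and 0.51 (SE 0.26) in knockout mice, and their difference of 0.80 (SE 0.35, unadjusted p = 0.0296) did not pass adjustment (adjusted p = 0.445, edgeR). The lowest levels, 3.04 and 3.27 CPM, were in control ZT12 replicate 2 and knockout ZT0 replicate 3, both with the length trend. Without the 3 libraries with that trend the difference for Slc2a3 was 0.33.

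**Figure D2:**
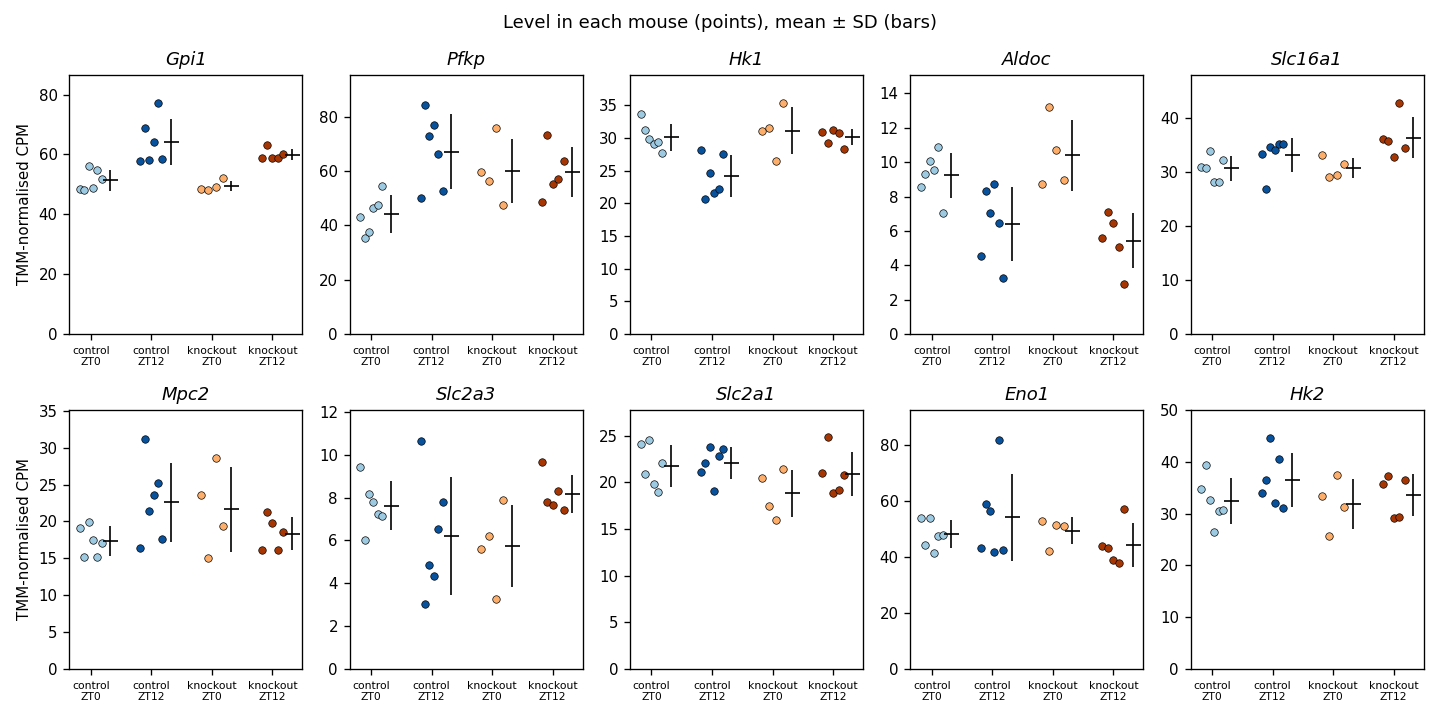
Level in CPM of the 10 genes given mouse by mouse (separate linear axes that start at 0), with 1 point per mouse and bars for the mean and SD of each group of control and knockout mice at ZT0 and ZT12. Gpi1 does not overlap between times in either genotype, Pfkp is higher at ZT12 in 4 of 6 control mice than in any control mouse at ZT0, and Hk1 at ZT12 is higher in all 5 knockout mice than in the 6 control mice.

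The 5 other genes of upper glycolysis were the phosphofructokinases Pfkl and Pfkm, the aldolases Aldoa and Aldoc, and triosephosphate isomerase (Tpi1), which interconverts the aldolase products. Aldoc, the isozyme best known from brain, had a lowest, median and highest level of 7.03, 9.44 and 10.9 CPM at ZT0 and of 3.25, 6.77 and 8.73 CPM at ZT12 in control mice. In knockout mice it was at 8.74, 13.2, 10.7 and 8.95 CPM at ZT0, against 5.61, 7.12, 6.46, 5.09 and 2.93 CPM at ZT12. All 4 knockout mice at ZT0 lay above all 5 knockout mice at ZT12, while 4 of the 6 control mice at ZT0 lay above all control mice at ZT12. The log2 fold change of Aldoc was -0.93 (SE 0.24, unadjusted p = 0.000635, adjusted p = 0.289, edgeR) in knockout and -0.53 (SE 0.21, adjusted p = 0.18, edgeR) in control mice, with an interaction of -0.40 (SE 0.32, adjusted p = 0.652, edgeR). Aldoa, whose reads outnumber those of Aldoc, had group means of 122, 123, 109 and 113 CPM in control mice at ZT0 and ZT12 and knockout mice at ZT0 and ZT12, with SDs of 8.63 to 14.1 CPM.

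Pfkm was at 12.9 ± 1.83 and 10.7 ± 1.63 CPM in control mice and 12.5 ± 1.66 and 10.6 ± 1.49 CPM in knockout mice at ZT0 and ZT12 (control log2 fold change -0.27, SE 0.13, adjusted p = 0.265, edgeR). Pfkl was at 35.2 ± 2.69 and 36.9 ± 6.66 CPM in control and 36.3 ± 5.78 and 32.2 ± 2.14 CPM in knockout mice. Tpi1 was at 29.4 ± 3.06 and 38.2 ± 10.7 CPM in control and 34.5 ± 5.80 and 33.2 ± 5.98 CPM in knockout mice (control log2 fold change 0.38, SE 0.15, adjusted p = 0.18, edgeR). For Tpi1 the highest mice were control ZT12 replicate 5 at 57.0 CPM and knockout ZT12 replicate 5 at 42.9 CPM, which were also the highest for epithelial markers. Without the first of them the time difference of Tpi1 in control mice was 0.23 (adjusted p = 0.373, edgeR), and with epithelial markers as a covariate it was 0.16 (adjusted p = 0.58, edgeR). Of the 7 genes of upper glycolysis, 5 reached an unadjusted p under 0.05 between times in control mice, beside 18.1% of all genes, with Gpi1, Pfkp and Tpi1 higher and Pfkm and Aldoc lower at ZT12. In knockout mice 2 did, beside 8.01% of all genes, with Gpi1 higher and Aldoc lower.

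In lower glycolysis none of the 6 genes passed the edgeR test in any comparison, and Eno3 passed between times in control mice with DESeq2. Eno1, enolase 1, had a lowest, median and highest level of 41.3, 47.8 and 54.2 CPM at ZT0 and of 41.9, 50 and 82.1 CPM at ZT12 in control mice. In knockout mice Eno1 was at 52.9, 42.3, 51.5 and 51.2 CPM at ZT0, against 44.0, 43.4, 38.9, 38.0 and 57.4 CPM at ZT12. Control ZT12 replicate 5, the library with the most epithelial markers, was the highest mouse, and the groups overlapped. The time difference was 0.17 (log2, SE 0.14, adjusted p = 0.545, edgeR) in control and -0.16 (SE 0.16, adjusted p = 0.831, edgeR) in knockout mice, and without that control mouse the former was 0.01.

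Eno3, the muscle-type enolase, was at 3.94 ± 0.602 and 5.87 ± 1.34 CPM in control mice at ZT0 and ZT12 (log2 fold change 0.57, SE 0.18, adjusted p = 0.101, edgeR, and 0.60, adjusted p = 0.0245 with DESeq2) and at 4.16 ± 1.03 and 4.58 ± 0.648 CPM in knockout mice. Pkm, which forms pyruvate, was the steadiest of the 31 genes over the 21 mice, with an SD of 0.12 on the log2 scale. Its means were 204 ± 9.13 and 204 ± 22.6 CPM in control mice and 212 ± 12.5 and 188 ± 13.5 CPM in knockout mice. Pgk1, which makes ATP, was at 66.4 ± 3.29, 71.2 ± 11.1, 69.1 ± 5.16 and 73.2 ± 5.61 CPM in control mice at ZT0 and ZT12 and knockout mice at ZT0 and ZT12. In that order of groups, phosphoglycerate mutase 1 (Pgam1) was at 24.3 ± 2.40, 24.1 ± 5.32, 26.4 ± 1.17 and 23.9 ± 3.98 CPM. Gapdh was at 7.82 ± 2.69, 6.25 ± 1.84, 6.66 ± 1.98 and 6.97 ± 1.85 CPM. None of Pkm, Pgk1, Pgam1 and Gapdh reached an unadjusted p under 0.05 in any comparison.

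Nearly all counts of lactate dehydrogenase, which interconverts pyruvate and lactate, came from Ldha. This gene was at 48.6 ± 6.66 and 70.2 ± 37.4 CPM in control mice at ZT0 and ZT12 and at 49.9 ± 5.54 and 54.7 ± 14 CPM in knockout mice (control log2 fold change 0.53, SE 0.23, adjusted p = 0.238, edgeR). Its highest mice were control ZT12 replicate 5 at 143 CPM and knockout ZT12 replicate 5 at 78.7 CPM, again the libraries with the most epithelial markers. Without the first of them the time difference of Ldha in control mice was 0.20 (SE 0.14, adjusted p = 0.517, edgeR), and with epithelial markers as a covariate it was 0.085 (SE 0.15, adjusted p = 0.825, edgeR). Ldhb, the heart-type subunit, had 1 count in each of control ZT0 replicates 1 and 4, 4 counts in knockout ZT0 replicate 4 and 0 counts in the other 18 mice, so Ldhb made up at most 0.742% of lactate dehydrogenase counts per kb in any mouse.

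Slc16a1 (MCT1), a carrier of lactate and pyruvate, had a lowest, median and highest level of 28.2, 30.8 and 34.0 CPM at ZT0 and of 26.9, 34.4 and 35.2 CPM at ZT12 in control mice. In knockout mice it was at 33.2, 29.0, 29.4 and 31.5 CPM at ZT0, against 36.1, 35.7, 32.8, 42.9 and 34.6 CPM at ZT12. In knockout mice the times overlapped by 1 mouse, 33.2 CPM at ZT0 against 32.8 CPM at ZT12, and the log2 fold change was 0.24 (SE 0.10, unadjusted p = 0.0216, adjusted p = 0.612, edgeR). In control mice it was 0.12 (SE 0.09, adjusted p = 0.495, edgeR). Slc16a3 was at 1.55 to 1.75 CPM in the 4 group means.

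Pyruvate entry into mitochondria was represented by the carrier subunits Mpc1 and Mpc2, the pyruvate dehydrogenase subunits Pdha1, Pdhb and Dlat, and the inhibitory kinases Pdk1 and Pdk3. Mpc2 had a lowest, median and highest level of 15.2, 17.3 and 19.98 CPM at ZT0 and of 16.4, 22.5 and 31.2 CPM at ZT12 in control mice. In knockout mice Mpc2 was at 23.6, 15.1, 28.5 and 19.4 CPM at ZT0, against 16.1, 21.3, 19.8, 16.1 and 18.5 CPM at ZT12. Of the 6 control mice at ZT12, 4 lay above every control mouse at ZT0, and the times overlapped in both genotypes. The SD was 5.78 CPM in knockout mice at ZT0 and 5.41 CPM in control mice at ZT12. The log2 fold change was 0.38 (SE 0.15, adjusted p = 0.173, edgeR) in control and -0.24 (SE 0.17, adjusted p = 0.735, edgeR) in knockout mice, and their difference of -0.62 (SE 0.22, unadjusted p = 0.0103) did not pass adjustment (adjusted p = 0.442, edgeR). The highest Mpc2 levels, 31.2 and 28.5 CPM, were again in control ZT12 replicate 2 and knockout ZT0 replicate 3, and without the 3 libraries with a length trend the difference for Mpc2 was -0.31. With the immunoglobulin share as a covariate the time difference in control mice was 0.00 (log2, SE 0.13) for Mpc2 and 0.22 (SE 0.22) for Slc2a3.

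**Figure D3:**
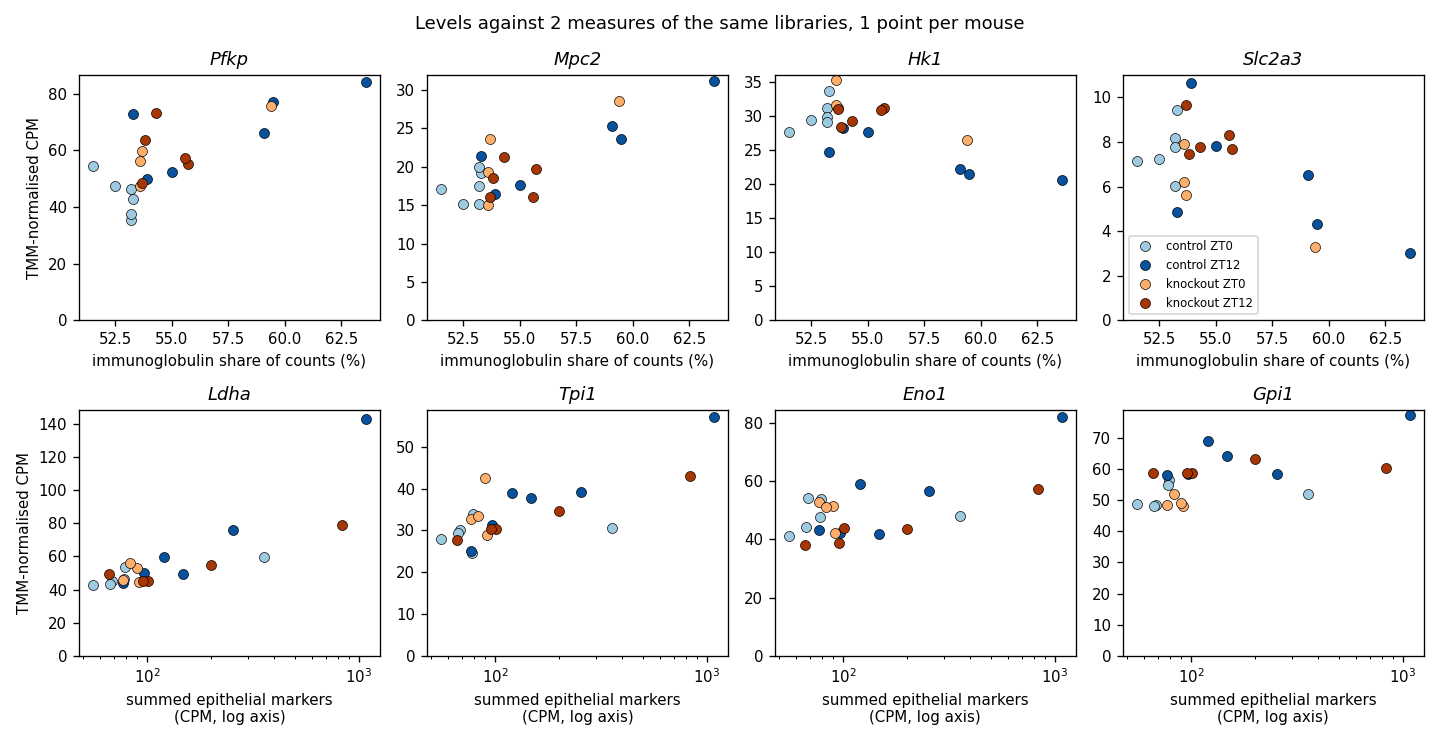
Level in CPM of 4 genes against the immunoglobulin share of all counts in percent (top row) and of 4 genes against the summed epithelial markers in CPM on a log axis (bottom row), with 1 point per mouse, coloured by group. The mouse with the highest immunoglobulin share (63.6%, control ZT12 replicate 2) has the highest Pfkp and Mpc2 and the lowest Hk1 and Slc2a3, and the mouse with the most epithelial markers (1085 CPM, control ZT12 replicate 5) has the highest Ldha, Tpi1, Eno1 and Gpi1.

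Pdhb was at 52.0 ± 3.18 and 62.4 ± 7.08 CPM in control mice at ZT0 and ZT12 (log2 fold change 0.26, SE 0.09, adjusted p = 0.123, edgeR, and 0.29, adjusted p = 0.0263 with DESeq2) and at 53.6 ± 3.36 and 58.6 ± 6.74 CPM in knockout mice. In the order control ZT0, control ZT12, knockout ZT0 and knockout ZT12, Mpc1 was at 5.0 ± 1.5, 6.05 ± 1.62, 5.93 ± 0.899 and 5.64 ± 1.07 CPM. Pdha1 was at 17.7 ± 0.992, 18.8 ± 2.38, 16.9 ± 3.71 and 19.4 ± 2.55 CPM, and Dlat at 11.6 ± 1.25, 11.2 ± 1.23, 10.8 ± 1.27 and 9.68 ± 1.04 CPM. Mpc1, Pdha1 and Dlat did not reach an unadjusted p under 0.05 in any comparison. The same held for the kinases that switch the complex off, of which Pdk1 had group means of 8.03 to 9.05 CPM and Pdk3 of 13.8 to 15.1 CPM.

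The enzymes that set the allosteric activator of phosphofructokinase, Pfkfb3 and Pfkfb4, were low, with group means of 6.36 to 7.31 CPM and 2.78 to 3.81 CPM, and neither passed a test. The oxidative pentose phosphate enzymes G6pdx, which makes NADPH at the entry of the pathway, and Pgd, which makes it at a later step, had group means of 14.8 to 16.3 CPM and 32.8 to 37.5 CPM. Neither passed a test in either genotype.

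**Figure D4:**
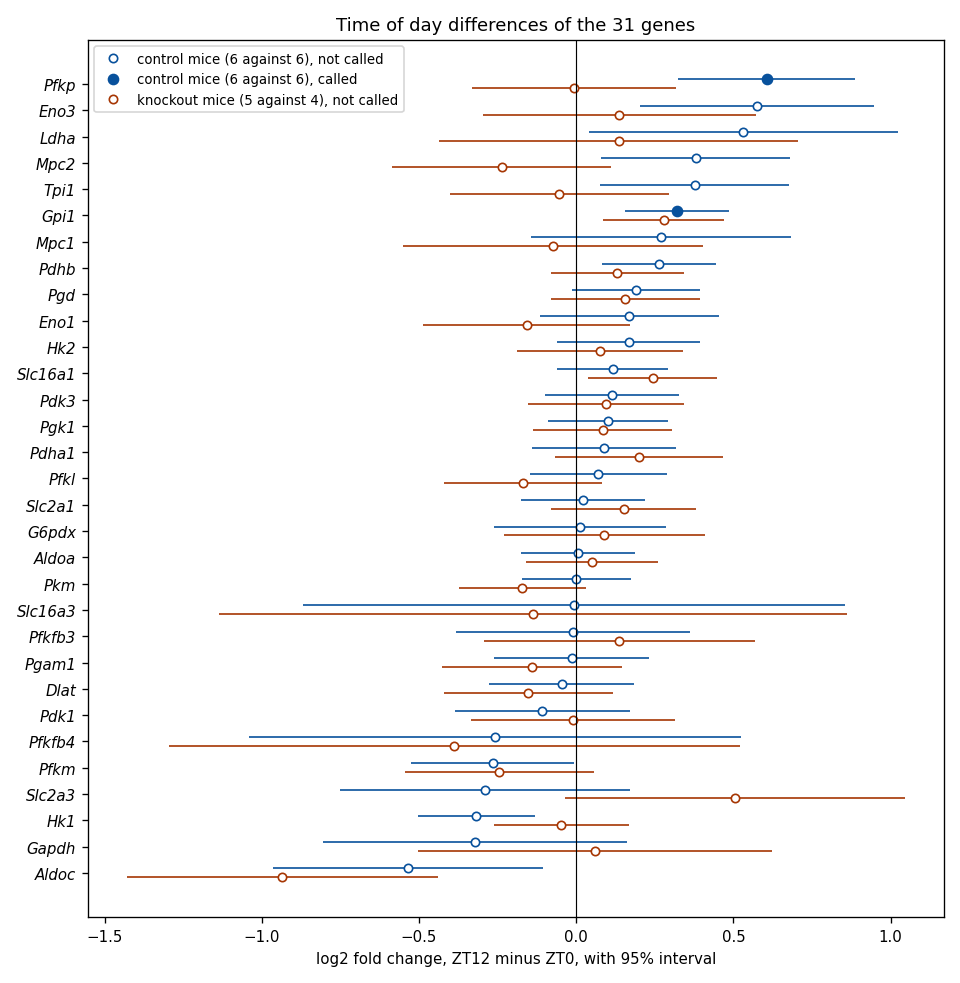
Log2 fold change between ZT12 and ZT0 of the 31 tested genes in control and knockout mice, with 1 point per gene and genotype (filled where it passed adjustment), bars for the 95% interval of the edgeR fit and a vertical line at 0. Pfkp (0.61) and Gpi1 (0.32) are the 2 genes that passed adjustment, both in control mice, and Aldoc (-0.93) has the lowest estimate in knockout mice.

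The second question was whether the time differences remain without Arntl in the B cell lineage. In knockout mice none of the 31 genes passed the test between ZT0 and ZT12, and neither did any of the 20256 genes (0%, edgeR), beside 47 genes by DESeq2 and none of the 31. At an unadjusted p under 0.05, 3 of the 31 genes differed (9.68%), Gpi1 and Slc16a1 higher and Aldoc lower at ZT12, beside 1622 genes or 8.01% of all genes. Estimates were above 0 for 16 genes, with a median of 0.05 beside 0.01 over all genes. The interaction of time and genotype, which tests the difference itself, was passed by none of the 31 genes and by none of all genes (0%, edgeR), beside 4 genes by DESeq2. At an unadjusted p under 0.05 it was passed by Pfkp, Mpc2 and Slc2a3 (9.68%), beside 2191 genes or 10.8% of all genes. The smaller groups of knockout mice gave wider errors, with a median SE over the 31 genes of 0.15 in knockout and 0.13 in control mice. A loss of the time difference in knockout mice was therefore not shown for any of these genes.

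Between genotypes at a single time, none of the 31 genes passed the test. At ZT0, 2 of all genes passed (0.00987%), and at an unadjusted p under 0.05 Pfkp was the only one of the 31 (3.23%), beside 993 genes or 4.90% of all genes. Pfkp was 0.44 higher in knockout mice (log2, SE 0.15, adjusted p = 0.926, edgeR). At ZT12, 3 of all genes passed (0.0148%), and at an unadjusted p under 0.05 Hk1 was the only one of the 31, beside 1789 genes or 8.83% of all genes. Estimates at ZT12 were below 0 in 23 of the 31 genes, including all 7 of upper glycolysis with a median of -0.17, beside a median of -0.01 over all genes. Scaling by library size alone moved the median of all genes to 0.12 and left 21 of the 31 above 0. Under that scaling 4 of the 7 of upper glycolysis were below 0, with a median of -0.018. With the immunoglobulin share as a covariate all 7 were below 0, with a median of -0.059. Without control ZT12 replicate 5, 12 of the 31 were above 0 and the median of the 31 was -0.031 in place of -0.09, with all 7 of upper glycolysis below 0 and their median at -0.060. Without the 3 libraries high in epithelial markers 14 of the 31 were above 0, and 6 of those 7 below it. The time and genotype comparisons use the same mice, so Pfkp in control mice at ZT0 enters both its time difference and its genotype difference.

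Where a step has several isozymes, their balance was compared as a share of counts per kb. Hk2 made up 60.5 ± 2.55% of the 2 hexokinases in control mice at ZT0 and 68.2 ± 4.71% at ZT12, and 59.2 ± 5.81% and 61.2 ± 3.70% in knockout mice. The ranges overlapped in both genotypes, and the difference of 7.70 percentage points in control mice (exact two-sided permutation test p = 0.0108) did not pass adjustment over the 20 share tests (adjusted p = 0.216). At ZT12 the share of Hk2 was lower in knockout than in control mice by 6.93 percentage points (exact permutation test p = 0.039, adjusted p = 0.39). Pfkl made up 38.8 to 42.5% of the 3 phosphofructokinases in the group means, Slc2a1 84.0 to 88.2% of the 2 glucose transporters and Slc16a1 95.5 to 96.5% of the 2 monocarboxylate transporters. The size of a share depends on the deposited gene lengths, which were 13401 bases for Pfkp and 6675 for Pfkl. In CPM over all mice, Pfkp was higher than Pfkl (57.3 against 35.2). None of these shares passed adjustment (lowest adjusted p = 0.498, exact permutation tests). The smallest p such a test can give is 0.00216 for 6 against 6 mice and 0.0159 for 4 against 5.

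**Figure D5:**
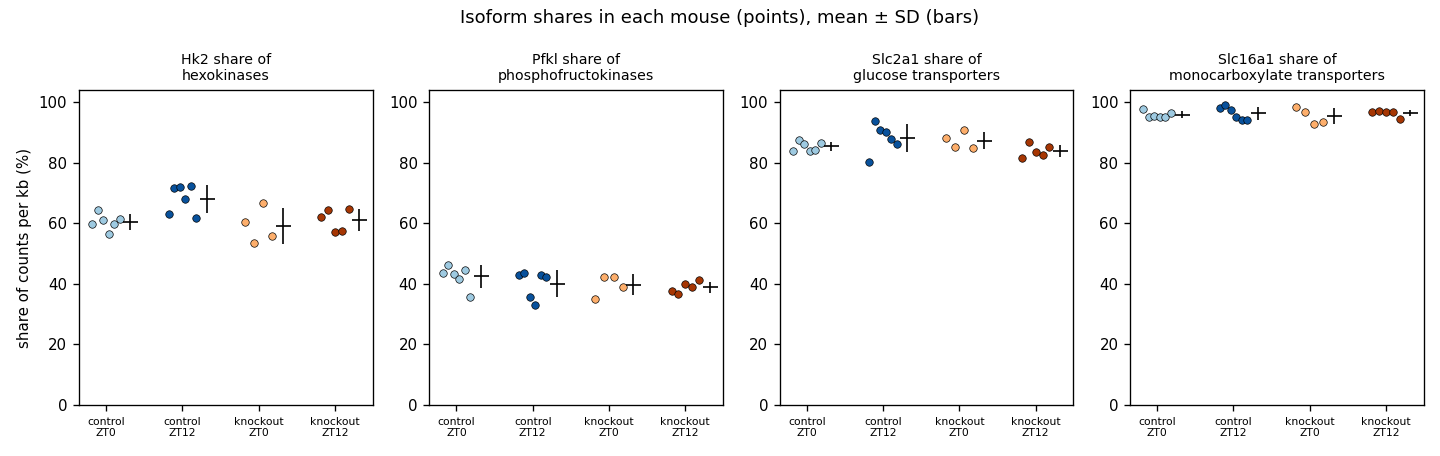
Share in percent of 1 isozyme among the isozymes of its step, from counts per kb, for Hk2, Pfkl, Slc2a1 and Slc16a1, with 1 point per mouse and bars for the group mean and SD. The share of Hk2 is higher at ZT12 than at ZT0 in the control group means (68.2% against 60.5%) with overlapping mice, and the other shares overlap in all groups.

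Genes of the same pathways outside the 32 were counted in the same fit. Of 35 other glycolytic and pyruvate genes, 31 were tested, and 1 passed in control mice: Pdp2, the phosphatase that reactivates pyruvate dehydrogenase, fell from 15.1 ± 2.46 to 9.91 ± 2.46 CPM (log2 fold change -0.60, SE 0.15, adjusted p = 0.0403, edgeR). The call of Pdp2 was kept in 11 of 21 fits with 1 library left out (estimates -0.72 to -0.50) and lost without any 1 of the 6 control mice at ZT0 or control ZT12 replicates 2, 3, 4 or 5 (highest adjusted p = 0.101, edgeR). Under the 15 other alternatives the estimates of Pdp2 ran from -0.78 to -0.34. Its call was kept in 8 of them and lost, among others, with the immunoglobulin share or epithelial markers as covariate (highest adjusted p = 0.587, edgeR). In knockout mice Pdp2 was at 13.7 ± 2.91 and 12.5 ± 0.886 CPM (log2 fold change -0.13, SE 0.17, adjusted p = 0.883, edgeR). Of these 31 genes, 9 were higher and 4 lower in control mice at an unadjusted p under 0.05 (41.9%), beside 9.19% higher and 8.86% lower over all genes. All 6 other genes of the pentose phosphate pathway were tested and none passed. Those with the smallest p in control mice were Pgls, the lactonase after G6pdx, at 24.7 ± 2.05 and 34.1 ± 9.69 CPM (log2 fold change 0.47, SE 0.14, adjusted p = 0.0903, edgeR), and Tkt, transketolase, at 91.9 ± 5.54 and 81.3 ± 9.87 CPM (log2 fold change -0.18, SE 0.08, adjusted p = 0.271, edgeR). None of the genes in either list passed in knockout mice, in the interaction or between genotypes.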

How the data were processed

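Total RNA of sorted IgA+ PCs from 21 mice was sequenced as poly(A) libraries from a kit that does not mark the strand. The deposited values are raw counts per gene, made by the authors and not normalised, with gene coordinates of GRCm38. The aligner, the counter and its version are not given in the sources used here, and the submitters' processing notes name DESeq2. All 21 sample columns were used, and 0 were left out. The table's Arntl counts cover the whole gene.

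The members and lists were chosen with earlier results of these data known. Counts were fitted in R 4.3.3 with the quasi-likelihood test of edgeR 4.0.16 (TMM factors, robust, 1 mean for each of the 4 groups), for genes with at least 10 counts in all (20256 of 53801). Benjamini-Hochberg adjustment was made over all of them for each of 5 comparisons: time in control mice, time in knockout mice, their interaction, and genotype at ZT0 and at ZT12. Adjusted p under 0.05 was called. The study's methods use DESeq2, which was run as an alternative (1.42.0). Library totals ranged from 14471018 to 22785835 counts, and no 2 mice of a group differed by as little as sampling noise. Isozyme and immunoglobulin shares were compared with exact two-sided permutation tests (scipy 1.17.1). The fitting script was tested on simulated data.

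Values of every mouse were given for 10 genes: those called in any comparison, those with the 3 smallest p in each comparison, and Hk1, Hk2 and Eno1, which the study shows. Genes of the other lists were named if called, and otherwise by the 2 smallest p in control mice. Alternatives were other scalings, filters and thresholds, a fit on the compared groups alone, a replicate block, covariates for immunoglobulin share, epithelial markers and gene length, and leaving out each library. Leaving out the libraries high in epithelial markers or with a length trend and a covariate for Xist (over or under 100 CPM) were added after seeing the data, as were running the alternatives for called genes outside the 32 and the epithelial alternatives for the other members. Mice are separate animals, and each p sets a difference between groups against the spread between mice. In the edgeR fit that spread was estimated for each gene over all 4 groups together, although the groups differed in spread. The permutation tests used only the groups compared.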

Additional observations from a re-analysis of the deposited data

Results flagged for a closer look

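Of 74 sets of 4 to 6 mice examined for a value that stands apart from the rest of its group, 10 held one. The rule flags about 1 in 20 by chance only for independent sets with a normal spread. These sets share mice and genes, so their number cannot be set against that rate. For the genes themselves, Slc16a1 in control ZT12 replicate 2 was low at 26.9 CPM (next lowest 33.4 CPM), and Eno1 in knockout ZT0 replicate 2 was low at 42.3 CPM (next lowest 51.2 CPM). Among isozyme shares, Ldhb stood apart at 0.742% in knockout ZT0 replicate 4, where its 4 counts lie and the other mice of the group have 0, and Slc16a1 was low at 94.7% of the monocarboxylate transporters in knockout ZT12 replicate 5 (next lowest 96.7%).

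The other values concern whole libraries. Knockout ZT0 replicate 3 had an immunoglobulin share of 59.4% (next highest 53.7%) and a slope of log2 level on log2 gene length of -0.131 (next lowest 0.0354). In control ZT0 replicate 2 that slope was high at 0.103 (next highest 0.05). Summed epithelial markers stood apart in control ZT0 replicate 6 at 356.1 CPM (next highest 79.1 CPM), in control ZT12 replicate 5 at 1085 CPM (next highest 255.6 CPM) and in knockout ZT12 replicate 5 at 830.6 CPM (next highest 200.2 CPM).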

How the results depend on the processing

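The time difference in control mice was the result that depended most on the processing. Against 2 of the 31 genes and 350 of all genes called, DESeq2 called 5 (Pfkp, Pdhb, Gpi1, Hk1 and Eno3) and 1052, a threshold of 0.01 called 0 and 14, and a fit on the control mice alone called 0 and 38. The immunoglobulin share as covariate gave 0 and 0, and epithelial markers as covariate 0 and 137. Leaving out the 3 libraries with high epithelial markers gave 1 (Pfkp) and 88, and leaving out the 3 with a length trend gave 0 and 57. With the filterByExpr count filter 3 (Pfkp, Gpi1 and Hk1) and 460 were called. Without a count filter 1 of the 31 (Pfkp) and 265 of all genes were called, and with the gene length trend removed 1 (Gpi1) and 317, where the estimate of Pfkp grew to 0.83 from 0.61 with a wider error (SE 0.21 against 0.14, adjusted p = 0.0539, edgeR). The cause of these shifts was not tested.

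With 1 library left out, 0 to 5 of the 31 genes and 31 to 944 of all genes were called in control mice. None of the 31 was called without control ZT0 replicate 1, 2, 3 or 5 (42, 31, 89 and 100 of all genes) or control ZT12 replicate 2, 3 or 4 (101, 116 and 37). More than 2 of the 31 were called without control ZT12 replicate 1 (5 of the 31 and 944 of all genes) or 6 (3 and 687) or knockout ZT0 replicate 3 (3 and 478). Counts over all genes also moved by over 1.5 times without control ZT0 replicate 4 (143) or 6 (194), control ZT12 replicate 5 (181) or knockout ZT12 replicate 1 (207), 3 (225) or 4 (217).

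In the other 4 comparisons none of the 31 genes was called under any alternative. DESeq2 called 47 of all genes in knockout mice, 4 in the interaction, 5 between genotypes at ZT0 and 8 at ZT12. In knockout mice 1 gene was called without a count filter, with the immunoglobulin share as covariate, or without the libraries high in epithelial markers. Removing the length trend called 1 gene in the interaction and 4 between genotypes at ZT0, and the epithelial covariate called 5 at ZT12. With 1 library left out the counts were 0 to 1, 0 to 1, 2 to 3 and 2 to 4 in these comparisons.

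Over 28 same-numbered pairs of mice the deviations from the group means had a median correlation of -0.04 (range -0.41 to 0.41), and 10 pairs were above 0.1. Over 136 differently numbered pairs the median was -0.003 (range -0.725 to 0.69), and 43 were above 0.1. Other groupings of the mice were not tested. The deposited columns open with control ZT0 replicates 1, 2 and 3, knockout ZT0 replicate 1, control ZT12 replicates 1 and 2 and knockout ZT12 replicate 1, all high in Xist. Whether mice were handled in such sets is not given in the sources used here. With the replicate block 183 of all genes and 0 of the 31 were called in control mice (Pfkp 0.59, adjusted p = 0.0549; Gpi1 0.32, adjusted p = 0.0635, edgeR), and no call among the 31 appeared elsewhere. A covariate for Xist changed no call among the 31 and left 297 of all genes called in control mice. The immunoglobulin share differed by 3.633 percentage points between times in control mice when constant region genes alone were counted (exact permutation test p = 0.0909).

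For the genes given in full and the called genes outside the list, 1102 of 1176 values with 1 library left out and 765 of 830 under other alternatives kept direction and side of the threshold. The sign changed in 17 and 21, all for differences that did not pass under either setting (lowest adjusted p = 0.41). Under library size alone the log2 difference became -0.084 for Slc16a1, -0.184 for Slc2a1, -0.055 for Eno1 and -0.041 for Hk2 between times in control mice, 0.151 for Gpi1 and 0.099 for Hk2 in the interaction, -0.047 for Slc16a1 and -0.016 for Eno1 between genotypes at ZT0, and 0.045 for Gpi1, 0.048 for Slc2a1 and 0.011 for Hk2 at ZT12. The immunoglobulin covariate gave 0.221 for Slc2a3 in control mice, 0.029 for Pfkp in knockout mice, 0.064 for Gpi1 in the interaction and -0.013 for Eno1 between genotypes at ZT0. The epithelial covariate gave -0.0097 for Slc2a1 and -0.025 for Eno1 in control mice. Without the libraries with a length trend Pfkp in knockout mice was 0.126 and Aldoc between genotypes at ZT12 was 0.020. At ZT0 between genotypes, Hk2 was 0.022 with the length trend removed and Aldoc -0.018 with the replicate block. With 1 library left out, the values that crossed 0 ran from -0.016 to 0.060 for Slc2a1 in control mice, from -0.116 to 0.127 for Pfkp, -0.117 to 0.0048 for Hk1 and -0.031 to 0.160 for Hk2 in knockout mice, from -0.084 to 0.017 for Gpi1 in the interaction, and from -0.010 to 0.117 for Hk1, -0.033 to 0.042 for Slc16a1 and -0.112 to 0.074 for Hk2 between genotypes at ZT0. In percentage points, the shares that did so ran from -3.82 to 0.554 (Hk2), -0.0962 to 0.151 (Ldhb) and -1.47 to 0.371 (Slc16a1) between genotypes at ZT0, from -0.369 to 0.653 (Slc16a1) at ZT12, from -0.108 to 0.914 (Slc16a1) in control mice, and from -2.42 to 0.0176 (Pfkl) and -0.947 to 0.987 (immunoglobulin) in knockout mice.

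Depth limits Ldhb, Slc16a3 and Pfkfb4 most (6, 551 and 1171 counts in all), and the 4 to 6 mice of each group limit all of the tests. A missing call is not evidence of equal levels.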

Other observations

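Genes that respond to low oxygen or sense sugars were listed beside the glycolytic genes, since many glycolytic genes are known targets of hypoxia-inducible factors. Of these 23 genes, all tested, 2 rose from ZT0 to ZT12 in control mice and none fell, beside 0.948% and 0.780% of all genes. At an unadjusted p under 0.05 the list held 17.4%, beside 18.1% of all genes. Egln2, a prolyl hydroxylase of the oxygen-sensing pathway, went from 36.0 ± 1.14 to 51.2 ± 16.0 CPM, with no overlap between the 6 and 6 mice (log2 fold change 0.51, SE 0.13, adjusted p = 0.0408, edgeR). With 1 library left out the estimate of Egln2 ran from 0.32 (without control ZT12 replicate 2) to 0.58, and with the immunoglobulin share as covariate it was 0.20. Its call was kept in 12 of 21 fits with 1 library left out and lost without any 1 of the 6 control mice at ZT0, control ZT12 replicate 2 or 4 or knockout ZT12 replicate 1 (highest adjusted p = 0.104, edgeR). Vegfa, the angiogenic growth factor, went from 0.913 ± 0.438 to 9.77 ± 11.6 CPM (log2 fold change 3.40, SE 0.79, adjusted p = 0.0413, edgeR), with 32.6 CPM in control ZT12 replicate 2. Without that library, which had the highest immunoglobulin share, its estimate was 2.49 (adjusted p = 0.107, edgeR), and the call was kept in 8 of 21 fits with 1 library left out (highest adjusted p = 0.109, edgeR). It was lost without any 1 of the 6 control mice at ZT0, control ZT12 replicate 2, 3 or 4, knockout ZT0 replicate 1 or knockout ZT12 replicate 1, 3 or 5. In knockout mice the levels of Vegfa were 4.70 ± 5.36 CPM at ZT0, with 12.2 CPM in replicate 3, and 1.54 ± 0.653 CPM at ZT12 (log2 fold change -1.59, SE 0.85, adjusted p = 0.655, edgeR). Both genes lost their call with the immunoglobulin share as covariate, and no gene of the list passed in knockout mice, in the interaction or between genotypes.

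Sugar carriers typical of enterocytes were concentrated in the library with the most epithelial markers. Of Slc2a2 (GLUT2) and Slc2a5, the fructose carrier, control ZT12 replicate 5 held 59 and 40 counts, and no other mouse held more than 8 and 11. Knockout ZT12 replicate 5, the library with the next most epithelial markers, held 5 and 4 counts.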
